A study of Caenorhabditis elegans with 16 samples.

Results

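The Skp1-related genes described here are *skr-1*, *skr-2*, *skr-3*, *skr-4*, *skr-5*, *skr-7*, *skr-8*, *skr-9*, *skr-10* and *skr-17*. These 10 genes were taken by name from count tables that held 21882 genes, of which 20 carried a *skr* name. The study asked what loss of *fbxa-215*, an F-box gene of the F-box A2 family, does to gene expression in embryos of *Caenorhabditis elegans*. Polyadenylated RNA was sequenced from whole, mixed-stage embryos, obtained by bleaching gravid adults that had been synchronised as L1 larvae. The wild type was the strain N2, and the mutant was SX3678, which carries *fbxa-215(syb4404)*, a CRISPR allele without the coding sequence of the gene, outcrossed to N2. In the 20 °C batch the adults were bleached about 56 h after plating, and in the 25 °C batch about 47 h after plating. The 4 groups were wild type at 20 °C, *fbxa-215* mutants at 20 °C, wild type at 25 °C and *fbxa-215* mutants at 25 °C, with 4 libraries in each and 16 in all. The mutant was a single strain, and the study's methods speak of biological replicates without saying what was separate between the 4 libraries of a group, so p-values measure the spread between these libraries, which may in part be technical. Temperature, hours after plating and batch changed together, and their parts in a difference between 25 °C and 20 °C cannot be told apart.

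Skp1 is the adaptor of the SCF ubiquitin ligase, a complex that also holds a cullin scaffold, a RING subunit that recruits the ubiquitin-conjugating enzyme, and an F-box protein that brings the substrate. One face of Skp1 binds the cullin and the other binds the F-box motif, so that many F-box proteins can use the same ligase core. Vertebrates have a single Skp1 gene, whereas nematodes of this genus carry a family of Skp1-related (SKR) genes next to a large set of F-box genes. In *C. elegans*, SKR-1 and SKR-2 are the partners of the cullin CUL-1 that embryos need to limit cell proliferation, and loss of *skr-7*, *skr-8*, *skr-9* or *skr-10* disturbs larval growth. SKR-3, SKR-4 and SKR-5 are known for acting with another cullin, CUL-6, in the response to intracellular pathogens and protein stress.

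The libraries held between 10001670 and 16777296 estimated counts. Levels are given as CPM, counts scaled to the library's total after TMM correction over the 16 libraries, and a count of 0 allows up to 3 counts, a floor of 0.184 to 0.303 CPM. The wild-type level of *fbxa-215* was 229 ± 7.14 CPM at 20 °C and 163 ± 9.31 CPM at 25 °C (SD, n = 4), and the 8 mutant libraries held 0 or 1 count of it, as their labels state. Of 12 adult soma and sperm markers (vitellogenins, *col-19*, major sperm proteins), the summed level was 1.56 to 5.49 CPM in every library, and 2 to 4 of the 12 were at 0 in each group. Embryonic stage was followed by a score, the mean log2 CPM of 22 late differentiation genes (muscle, cuticle, gut and neuronal genes) minus that of 21 maternal genes. At 20 °C the wild-type libraries scored -1.67 to -1.44 and the mutant libraries -1.92 to -1.55. At 25 °C the wild-type scores were 0.217 to 0.367 and the mutant scores -0.0912 to 0.152. The 25 °C embryos thus scored later in every library, and the mutants scored on average earlier at each temperature. At 20 °C the lower mutant score went with lower late differentiation genes (median log2 fold change -0.31) and not with higher maternal genes (median -0.05). At 25 °C these medians were -0.15 and 0.13. In whole embryos, fewer cells of a type and less RNA per cell cannot be told apart.

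The members fall into groups by gene structure and position in WBcel235. *skr-1* (WBGene00004807, chromosome I, 9471550 to 9472641) and *skr-2* (WBGene00004808, chromosome I, 9469654 to 9470637) lay in a row on the plus strand, 912 bases apart, each with 3 exons, and their proteins had 176 and 174 residues. *skr-7* (WBGene00004813, chromosome V, 4422427 to 4423011, plus), *skr-8* (WBGene00004814, chromosome IV, 17165250 to 17165834, minus), *skr-9* (WBGene00004815, chromosome IV, 17163573 to 17164157, plus) and *skr-10* (WBGene00004816, chromosome IV, 15946807 to 15947385, plus) each had a single coding exon with no annotated UTR, and proteins of 192 to 194 residues. *skr-9* and *skr-8* faced each other with their 3′ ends in a cluster with *skr-12* and *skr-13*, with gaps of 957 to 1439 bases, and *skr-7* was 851 bases from *skr-14*. *skr-3* (WBGene00004809, 16121084 to 16122649), *skr-4* (WBGene00004810, 19924224 to 19925033) and *skr-5* (WBGene00004811, 17347902 to 17348723) were spread over chromosome V on the plus strand, the last overlapping *lsy-27* on the other strand, whose reads cannot be separated in these non-directional libraries. *skr-17* (WBGene00004823, 7783517 to 7784654, plus) stood alone on chromosome II.

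Salmon divides a read that matches several transcripts among them. Counting a value within 0.01 of a whole number as whole, the estimated counts of *skr-1*, *skr-2*, *skr-7*, *skr-8*, *skr-9* and *skr-10* were whole numbers in at most 1 of the 16 libraries each, whereas those of *skr-4* and *skr-5* were whole in all 16, at 0 to 3 counts. How far the members share reads with each other was not tested, and the sums of *skr-1* and *skr-2* and of *skr-7* to *skr-10* are given beside the single genes.

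Per kb of exon, 6 of the 10 members were among the abundant messages of the embryo, and the order changed little between the groups. *skr-7* was the highest member in each of the 4 groups, at 802 ± 21.5 CPM per kb in wild type and 919 ± 23.8 in mutants at 20 °C, and at 689 ± 74.98 and 731 ± 26.9 at 25 °C (SD, n = 4). At 20 °C in wild type it was followed by *skr-8* (511 ± 14.2 CPM per kb), *skr-1* (412 ± 19.1), *skr-10* (396 ± 21.3), *skr-9* (320 ± 18.8) and *skr-2* (152 ± 14.7). Only *skr-1* and *skr-10* had overlapping library ranges among these neighbours in wild type at 20 °C, and *skr-10* stood above *skr-1* in mutants at 20 °C. At 25 °C in wild type *skr-1* (476 ± 8.27 CPM per kb) and *skr-8* (458 ± 37.4) overlapped, as did *skr-10* and *skr-9*. In CPM not divided by length, and in that group only, *skr-1* (411 ± 7.14) had a higher mean than *skr-7* (403 ± 43.9). The exon lengths of *skr-7* to *skr-10* hold no annotated UTR, and the part of this in the order was not tested. Among 19637 protein-coding genes ranked per kb in each group, these 6 members stood above 94.1% to 99.6% of the genes. *skr-17* stood above 67.1% to 71.3% of the genes, at group means of 13.7 to 19.3 CPM per kb, and *skr-3* above 60.7% to 62.5%, at 5.17 to 8.51 CPM per kb. *skr-4* and *skr-5* closed the order with 0 to 3 counts in each library and could not be ranked against each other.

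**Figure D1:**
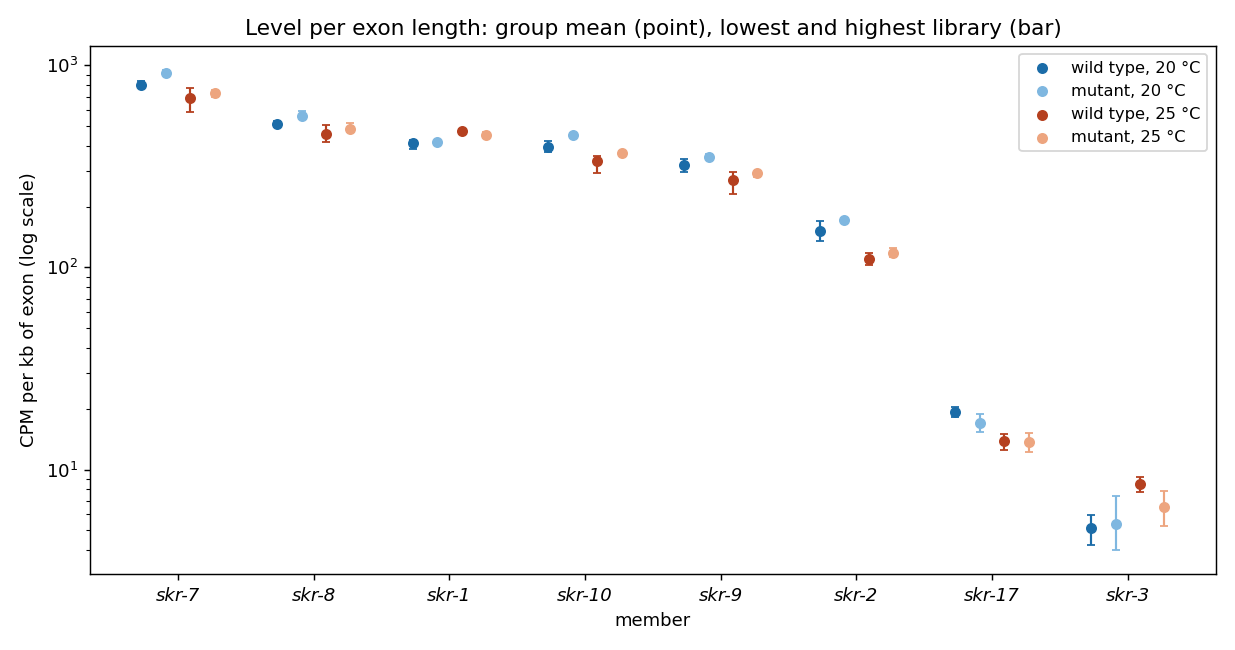
Level per exon length of the 8 members with measurable counts, in CPM per kb of exon on a log axis; points are group means of 4 libraries and bars run from the lowest to the highest library. *skr-7* leads in each group, and *skr-17* and *skr-3* lie far below the other 6, at 5.17 to 19.3 CPM per kb.

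*skr-1* and *skr-2* moved in opposite directions between the temperatures. At 20 °C the 4 wild-type libraries held 357, 363, 332 and 370 CPM of *skr-1*, and the 4 mutant libraries 363, 361, 364 and 353 CPM. At 25 °C *skr-1* was at 414, 409, 418 and 401 CPM in wild type and at 393, 403, 389 and 379 CPM in mutants. Every 25 °C library thus lay above every 20 °C library, and the genotypes overlapped at each temperature. *skr-2* was at 111, 129, 102 and 117 CPM in wild type and at 133, 133, 129 and 127 CPM in mutants at 20 °C. At 25 °C it was at 89.0, 86.2, 77.5 and 82.4 CPM in wild type and at 90.5, 85.4, 85.2 and 94.7 CPM in mutants. All 8 libraries at 25 °C were below all 8 at 20 °C for *skr-2*, the reverse of its neighbour.

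On the log2 scale *skr-1* was higher at 25 °C by 0.20 ± 0.05 (SE) in wild type and by 0.14 ± 0.03 in mutants, and *skr-2* was lower, with log2 fold changes of -0.46 ± 0.07 and -0.53 ± 0.04. All 4 passed edgeR's quasi-likelihood test with Benjamini-Hochberg adjustment over all genes tested (adjusted p = 0.00172 and 0.000171 for *skr-1*, 1.72e-05 and 1.40e-11 for *skr-2*). The sum of both genes barely moved, by 0.06 ± 0.05 in wild type and by -0.01 ± 0.03 in mutants, so what differed was the balance within the pair. *skr-1* made up 75.6 ± 1.22% of the pair's counts in wild type and 73.4 ± 0.344% in mutants at 20 °C, against 83.1 ± 0.907% and 81.5 ± 1.10% at 25 °C. The libraries ranged from 73.0% to 76.4% at 20 °C and from 80.0% to 84.4% at 25 °C, with no overlap. This share was looked at after the values of both genes were seen and was not tested, and the part of salmon's division of reads in it was not tested.

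**Figure D2:**
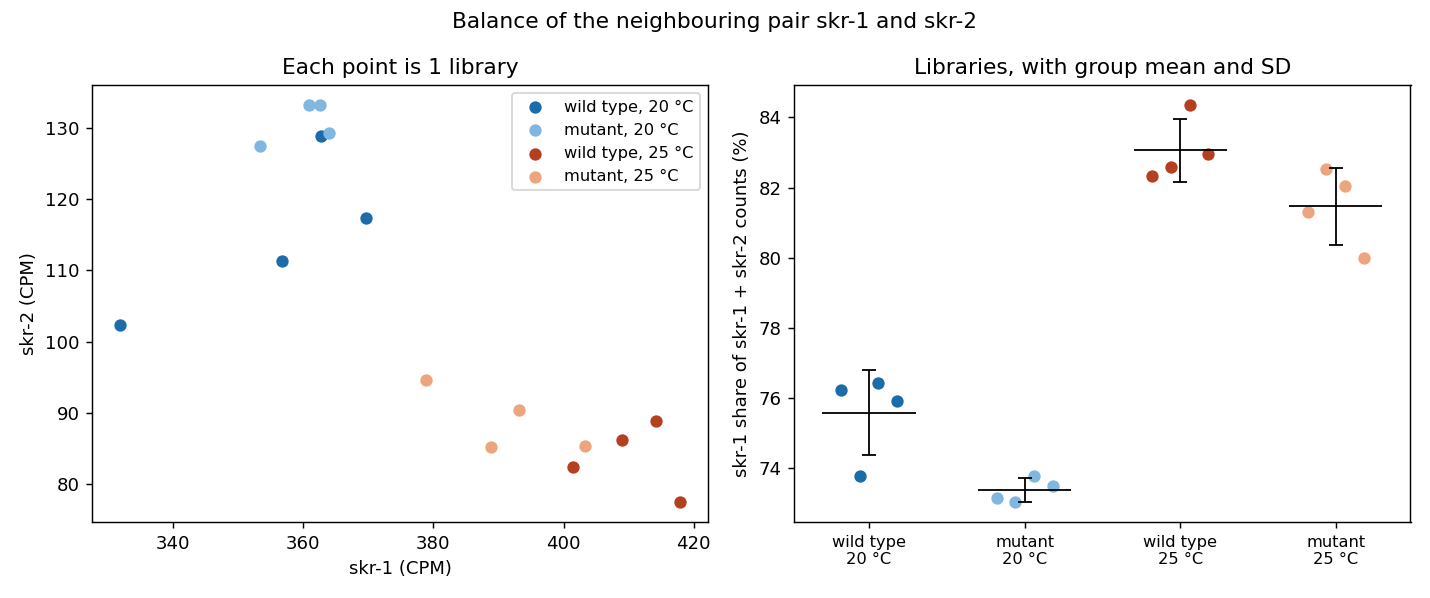
Left, *skr-2* against *skr-1* in CPM, 1 point per library, on axes that do not start at 0; right, the share of *skr-1* in the counts of both genes, in percent, with group mean and SD (n = 4). The 25 °C libraries lie at higher *skr-1* and lower *skr-2*, and their shares of 80.0% to 84.4% lie above the 73.0% to 76.4% of the 20 °C libraries.

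*skr-7* to *skr-10*, the single-exon members, were lower at 25 °C in both genotypes and, at 20 °C, higher in mutants. *skr-7* was at 463, 464, 462 and 488 CPM in wild type and at 522, 533, 555 and 541 CPM in mutants at 20 °C. At 25 °C it was at 406, 411, 345 and 451 CPM in wild type and at 443, 410, 420 and 438 CPM in mutants. The genotypes did not overlap at 20 °C and overlapped at 25 °C, where the wild-type libraries spread widely. *skr-10* was at 221.95, 243.93, 216.69 and 234.68 CPM in wild type and at 267, 266, 252 and 257 CPM in mutants at 20 °C. At 25 °C *skr-10* was at 202, 196, 170 and 207 CPM in wild type and at 219, 210, 210 and 212 CPM in mutants. It was the one member whose genotypes did not overlap at either temperature.

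*skr-8* was at 288, 300, 299 and 309 CPM in wild type and at 326, 317, 347 and 327 CPM in mutants at 20 °C. At 25 °C it was at 263, 267, 244 and 297 CPM in wild type and at 303, 274, 279 and 276 CPM in mutants. The genotypes of *skr-8* were apart at 20 °C only, and the highest wild-type library at 25 °C reached into the wild-type range at 20 °C. *skr-9* was at 174, 189, 187 and 201 CPM in wild type and at 205, 203, 214 and 200 CPM in mutants at 20 °C. At 25 °C *skr-9* was at 160, 161, 135 and 173 CPM in wild type and at 173, 165, 173 and 172 CPM in mutants. The genotypes of *skr-9* overlapped at both temperatures, and the temperatures overlapped in neither genotype.

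The 4 genes kept nearly constant proportions. In the 16 libraries *skr-7* took 38.6% to 40.8% of their summed counts, *skr-8* 24.1% to 27.3%, *skr-10* 18.3% to 20.4% and *skr-9* 15.1% to 16.3%. The part of salmon's division of reads in these proportions was not tested. Replicate 3 of wild type at 25 °C was the lowest of its group for each of the 4 genes, with a summed level of 894 CPM against 1031 to 1128 CPM in the other 3. That library also had the highest stage score of the series, 0.367, and the part of stage in its low values was not tested. The sum of the 4 genes differed by 0.17 ± 0.03 between mutants and wild type at 20 °C and by 0.12 ± 0.06 at 25 °C on the log2 scale, where it was 0.0561 without replicate 3 of wild type and 0.166 without replicate 4. Between 25 °C and 20 °C the sum differed by -0.22 ± 0.06 in wild type and by -0.26 ± 0.03 in mutants.

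**Figure D3:**
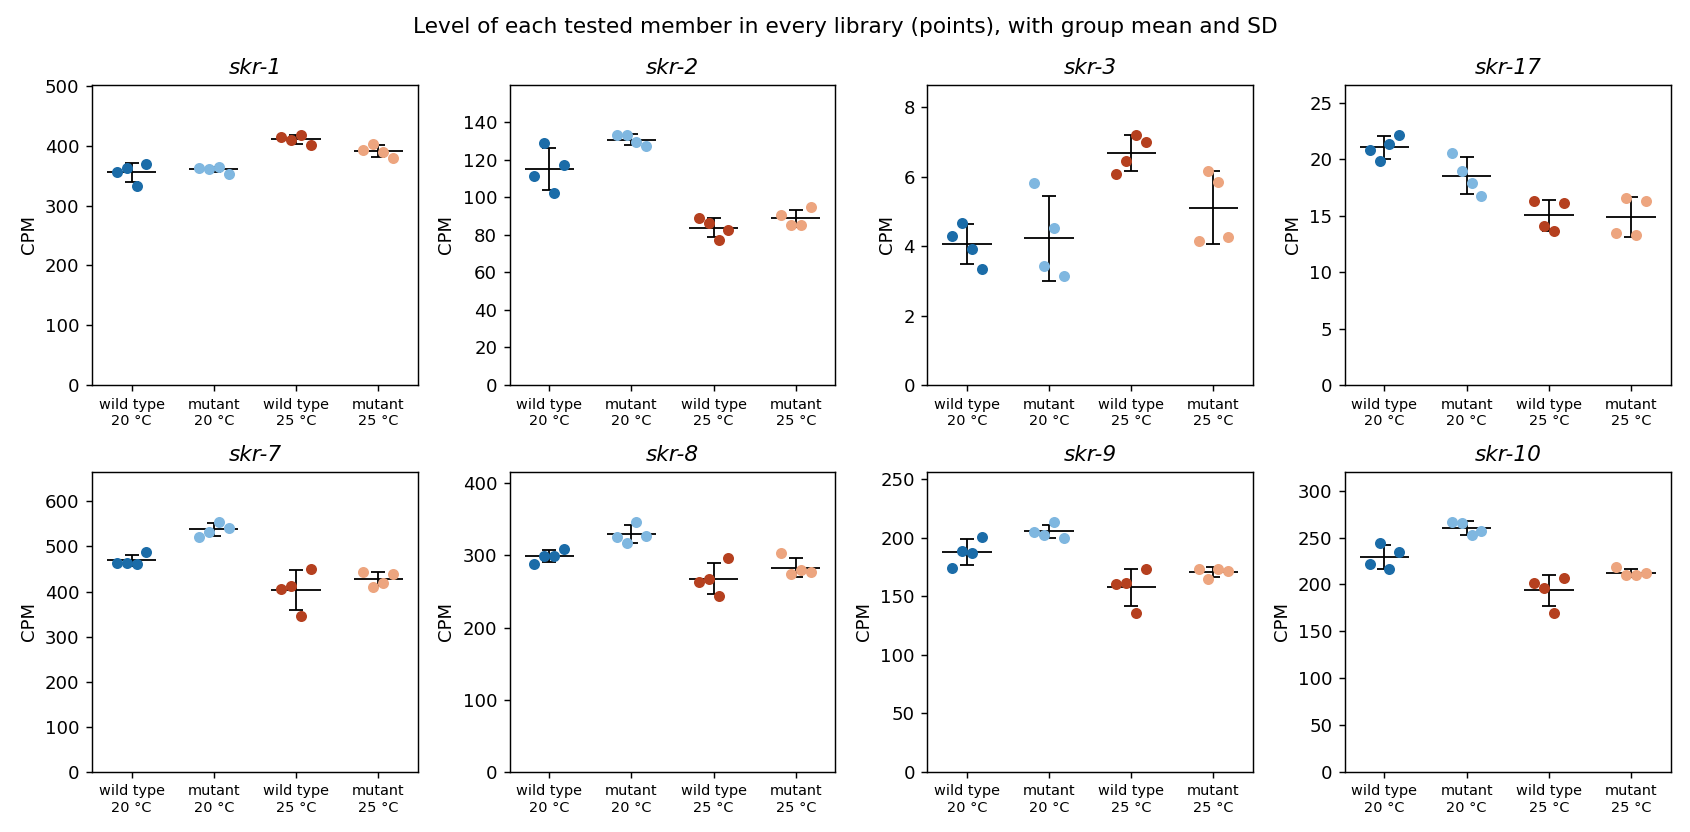
CPM of the 8 tested members in every library (points), with the mean and SD of the 4 libraries of each group. *skr-1* and *skr-3* are highest in wild type at 25 °C, *skr-2* and *skr-7* to *skr-10* are highest in mutants at 20 °C, and replicate 3 is the lowest of wild type at 25 °C for *skr-7* to *skr-10*.

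*skr-3*, *skr-4* and *skr-5* were scarce. *skr-3* was at 4.30, 4.67, 3.93 and 3.34 CPM in wild type and at 5.81, 3.43, 4.54 and 3.13 CPM in mutants at 20 °C. At 25 °C it was at 6.08, 6.45, 7.21 and 7.01 CPM in wild type and at 4.15, 6.16, 5.86 and 4.28 CPM in mutants. All wild-type libraries at 25 °C were above all wild-type libraries at 20 °C, while the mutants overlapped between the temperatures. These levels rest on 33.0 to 103 counts a library. In wild type the log2 fold change of *skr-3* at 25 °C was 0.70 ± 0.14 (adjusted p = 0.000340), a 1.62-fold difference and the largest of any member in the 4 comparisons. In mutants it was 0.28 ± 0.18 (95% interval -0.10 to 0.66, adjusted p = 0.174), which did not pass, and without replicate 1 of the mutants at 20 °C it was 0.46 and passed (adjusted p = 0.0300). Without replicate 2 or 4 of the mutants at 20 °C, or replicate 2 at 25 °C, it was 0.15 to 0.16 (adjusted p of 0.491 to 0.507). The difference between those 2 temperature effects was itself tested as the interaction below and did not pass.

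*skr-4* had 0 counts in all 8 wild-type libraries, and the mutant libraries held 0 to 2 counts at 20 °C and 0 to 3 counts at 25 °C. *skr-5* held 0 to 2 counts in wild-type libraries at either temperature, 0 or 1 in mutants at 20 °C and 0 to 3 in mutants at 25 °C. Neither gene passed the filter on low counts, no fold is given for them, and a difference was not detectable at this depth. *cul-6*, the cullin named above with this set, was near the floor too. At 25 °C it had 3 to 7 counts in the wild-type libraries and 10 to 15 counts in the mutant libraries. At 20 °C the order of the means was the other way, 0.824 ± 0.294 CPM in wild type and 0.530 ± 0.206 CPM in mutants (SD). The libraries overlapped there, and *cul-6* was not tested between the genotypes at 20 °C. Its 20 °C wild-type mean was close to its 25 °C mutant mean, 0.834 CPM. Its CPM at 25 °C was 0.248, 0.447, 0.280 and 0.208 in wild type and 0.918, 0.953, 0.742 and 0.724 in mutants, a log2 fold change of 1.49 ± 0.34 (adjusted p = 0.0241). That call did not hold with DESeq2 (adjusted p = 0.0520), nor without replicate 1 of wild type (0.0792) or replicate 1 (0.0895) or 4 (0.0645) of the mutants, checks that were added after its values were seen. *skr-3* in the same comparison had a log2 fold change of -0.37 ± 0.14 (adjusted p = 0.155). The genotype by temperature interaction of *cul-6* was 2.03 ± 0.51 and was not called by edgeR's quasi-likelihood test (adjusted p = 0.0519).

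*skr-17* was intermediate in level. It was at 20.8, 19.8, 21.4 and 22.1 CPM in wild type and at 20.55, 18.98, 17.87 and 16.71 CPM in mutants at 20 °C. At 25 °C it was at 16.3, 14.1, 13.7 and 16.1 CPM in wild type and at 13.4, 16.5, 13.3 and 16.3 CPM in mutants. The temperatures did not overlap in either genotype, and the genotypes overlapped at both temperatures. The log2 fold change at 25 °C was -0.49 ± 0.08 in wild type (adjusted p = 0.000102) and -0.30 ± 0.09 in mutants (adjusted p = 0.00580).

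The first genotype comparison asked which members differed in mutants at 20 °C. A gene was called at an adjusted p under 0.05. Of the 8 tested members, 5 were called higher in mutants, 0 lower and 3 were not called, where 7.65% of the 10470 genes tested were called higher and 9.66% lower. The 5 were *skr-7* (log2 fold change 0.19 ± 0.03, adjusted p = 0.000516), *skr-10* (0.18 ± 0.04, 0.00299), *skr-8* (0.14 ± 0.04, 0.0137), *skr-2* (0.18 ± 0.05, 0.0156) and *skr-9* (0.13 ± 0.04, 0.0326). These are differences of 1.09-fold to 1.14-fold, and no member passed the fold of 2 that the study required, against 1.12% of all genes. *skr-1* (0.02 ± 0.04, 95% interval -0.06 to 0.09), *skr-3* (0.05 ± 0.19, -0.34 to 0.44) and *skr-17* (-0.18 ± 0.08, -0.34 to -0.02, adjusted p = 0.121) were not called. The genotypes did not overlap for *skr-7*, *skr-8* and *skr-10*, 3 of the 8, against 19.6% of all genes. The median log2 fold change of the 8 was 0.13, and that of all genes tested was 0.00148. How far the 5 calls rest on reads shared between members was not tested.

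Several of the 20 °C calls were lost under other settings. With the stage score as a covariate *skr-2* (0.29 ± 0.07, adjusted p = 0.0180) and *skr-10* (0.26 ± 0.06, adjusted p = 0.00941) were called, and *skr-7* (0.16 ± 0.05, adjusted p = 0.0850), *skr-8* (0.11 ± 0.06, adjusted p = 0.296) and *skr-9* (0.12 ± 0.06, adjusted p = 0.300) were not. Of the mutant stage scores at 20 °C, only that of replicate 1 (-1.55) lay within the wild-type range of -1.67 to -1.44. The fit with the score therefore separates stage from genotype poorly. In 1 fit of all 16 libraries *skr-8* (adjusted p = 0.0642) and *skr-9* (adjusted p = 0.118) were not called. Calls fell to 3 when replicate 1 or 3 of wild type or replicate 2 or 3 of the mutants at 20 °C was left out, and *skr-7* and *skr-10* were among them each time. *skr-2* lost its call without either of those wild-type libraries or without mutant replicate 2 (adjusted p of 0.0529 to 0.0639), *skr-8* without mutant replicate 3 (0.0655), and *skr-9* without any 1 of the 8 except replicate 4 of either genotype (0.0546 to 0.132).

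At 25 °C the same comparison gave no call. edgeR called 0 of the 8 tested members in either direction, as did DESeq2, where 2.09% of the 11944 genes tested were called higher and 2.03% lower, and 0.310% passed the fold of 2 as well. At an unadjusted p under 0.05 there were 2 members, *skr-10* (log2 fold change 0.15 ± 0.06, adjusted p = 0.139) and *skr-3* (-0.37 ± 0.14, adjusted p = 0.155), by edgeR's quasi-likelihood test. *skr-7* (0.10 ± 0.07, 95% interval -0.04 to 0.25), *skr-8* (0.10 ± 0.06, -0.03 to 0.23) and *skr-9* (0.13 ± 0.06, -0.0008 to 0.27) had intervals that hold both 0 and the sizes found at 20 °C. Groups did not overlap for 1 member, *skr-10*, against 12.8% of all genes. With the stage score as a covariate the estimates turned direction for *skr-2* (from 0.10 to -0.07), *skr-3* (0.10), *skr-7* (-0.12), *skr-8* (-0.06) and *skr-9* (-0.03), with adjusted p of 0.716 to 0.948. In the same fit *skr-17* turned from 0.006 to -0.10 and was not called. The stage scores of the genotypes did not overlap at 25 °C, so this fit can hardly separate stage from genotype. Without replicate 4 of wild type at 25 °C, *skr-10* was called (0.18, adjusted p = 0.0441).

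Between the temperatures nearly all tested members differed, as did much of the transcriptome. In wild type 2 of 8 were called higher at 25 °C (*skr-1*, *skr-3*) and 6 lower (*skr-2*, *skr-7*, *skr-8*, *skr-9*, *skr-10*, *skr-17*), where 34.9% of 11578 genes were called higher and 31.3% lower. In mutants 1 was called higher (*skr-1*) and 6 lower (the same 6), where 36.3% of 11558 genes were called higher and 33.0% lower. No member passed the fold of 2 in either genotype, while 21.1% of all genes in wild type and 19.9% in mutants did. The temperatures did not overlap for 7 of the 8 in wild type and for 7 in mutants, against 59.2% and 64.5% of all genes. For *skr-7* to *skr-10* the log2 fold changes in wild type were -0.23 ± 0.07, -0.17 ± 0.06, -0.26 ± 0.07 and -0.25 ± 0.06, in this order, and in mutants -0.31 ± 0.03, -0.19 ± 0.04, -0.24 ± 0.03 and -0.27 ± 0.03. *skr-8* in wild type (adjusted p = 0.0179) lost its call without replicate 3 of wild type at 25 °C (-0.12, adjusted p = 0.0749), with upper-quartile scaling (-0.10, adjusted p = 0.135) and with genes of at least 10 counts in every library alone (-0.11, adjusted p = 0.106). Maternal genes were lower at 25 °C as well, 15 of the 21 in each genotype, while 18 and 17 of the 21 late differentiation genes tested were higher, and the part of stage in the members' temperature differences was not tested.

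**Figure D4:**
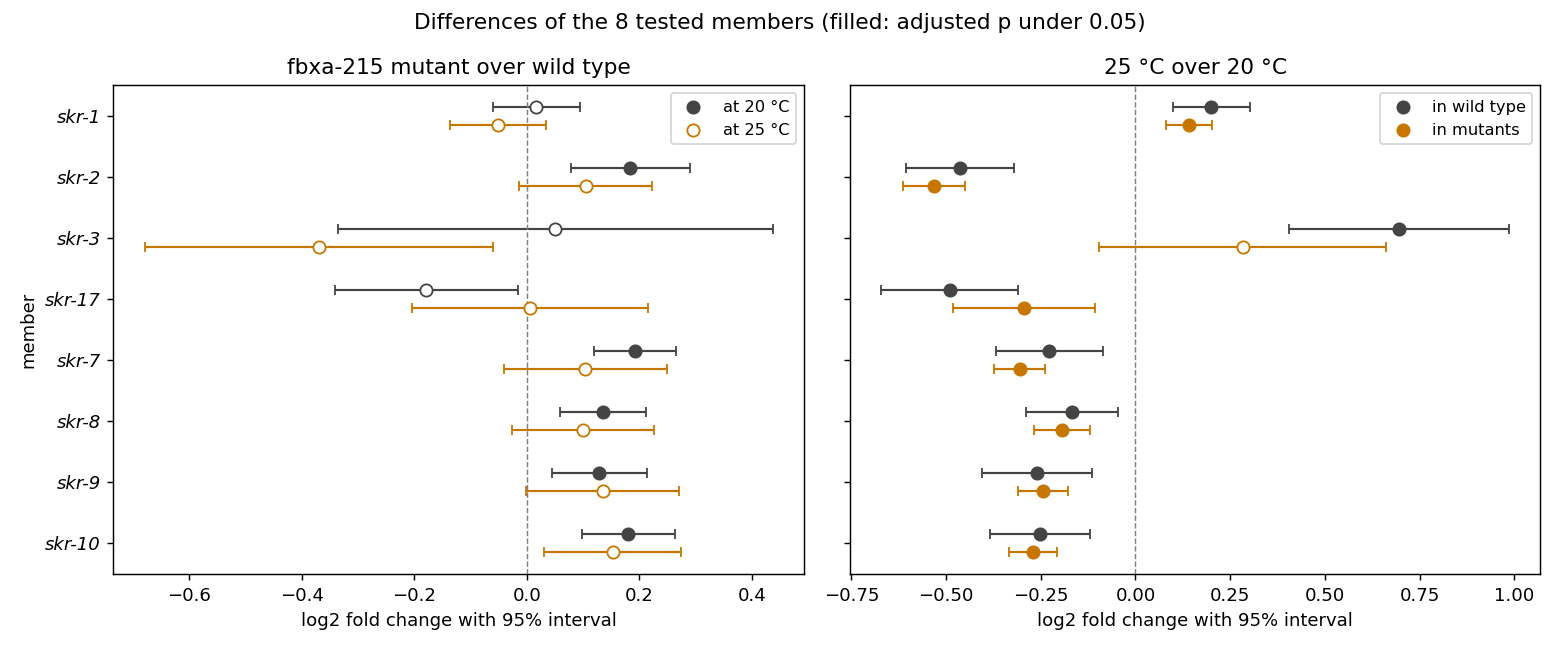
Log2 fold changes of the 8 tested members with 95% intervals, mutant over wild type on the left and 25 °C over 20 °C on the right; filled points have an adjusted p under 0.05. The 5 filled points on the left lie between 0.13 and 0.19, all at 20 °C, and on the right *skr-1* and *skr-3* lie above 0 and the other 6 below it.

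The genotype by temperature interaction asked whether the mutant's difference from wild type was itself different at 25 °C. edgeR called 0 of the 8 tested members, 0 had an unadjusted p under 0.05, and DESeq2 called 0. Of 12116 genes tested, 0.503% were called higher and 0.594% lower, and 0.182% passed the fold of 2 as well. The largest estimate was that of *skr-3*, -0.44 ± 0.25 (95% interval -0.95 to 0.07, adjusted p = 0.423). *skr-7* had -0.11 ± 0.08 (-0.27 to 0.05, adjusted p = 0.529) and *skr-10* -0.05 ± 0.07 (-0.20 to 0.09, adjusted p = 0.791), so the calls at 20 °C and their absence at 25 °C were not shown to differ. Leaving out 1 library moved these estimates, with none called. *skr-3* ran from -0.55 to -0.25, the latter without replicate 1 of the mutants at 20 °C. *skr-7* ran to -0.18 and *skr-10* to -0.11 without replicate 3 of wild type at 25 °C. Without replicate 4 of that group they were -0.05 and -0.02.

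Of the other *skr* genes, 10 were matched and 9 tested, *skr-6* having 0 counts in all 16 libraries. At 20 °C 3 of the 9 were called higher in mutants and 0 lower, namely *skr-15* (0.22 ± 0.04, adjusted p = 0.000496), *skr-14* (0.16 ± 0.04, 0.00667) and *skr-13* (0.12 ± 0.04, 0.0489), where 7.65% of all genes were called higher and 9.66% lower. DESeq2 called 2 of the 9 at 20 °C. At 25 °C edgeR and DESeq2 called 0 of the 9, with 1 at an unadjusted p under 0.05. At 25 °C against 20 °C, 6 were lower in wild type and 8 in mutants, where 31.3% and 33.0% of all genes were called lower, and 0 were higher, where 34.9% and 36.3% of all genes were. *skr-1* and *skr-3* were the 2 *skr* genes called higher at 25 °C in either genotype.

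Among the 3 members with the highest mean CPM, the genes closest in pattern over the 16 libraries were found by the root mean square difference of mean-centred log2 CPM among 12116 genes. For *skr-7* these were *skr-14* (0.04), *skr-9* (0.04) and *tipn-1* (0.05), where the median over genes was 0.26. For *skr-1* they were *mlc-4*, a myosin light chain (0.04), *vha-20*, a vacuolar ATPase subunit (0.04), and *rab-11.1*, a small GTPase (0.04), with a median of 0.27. The nearest *skr* gene to *skr-1* was *skr-19*, at rank 1023. For *skr-8* they were *C16C10.4* (0.04), the ribonucleotide reductase gene *rnr-2* (0.05) and *pcyt-1* (0.05), with *skr-9* as the nearest *skr* gene at rank 24. The part of salmon's division of reads in the likeness between *skr* genes was not tested.

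A list of 27 SCF genes held the cullins, RING subunits, F-box proteins, neddylation enzymes, E2 enzymes and COP9 signalosome subunits that work with the SKR proteins. At 20 °C 2 of 26 tested were called higher in mutants and 2 lower, where 7.65% of all genes were called higher and 9.66% lower, among them *dre-1*, an F-box gene (-0.22 ± 0.04), *csn-2*, a signalosome subunit (0.13 ± 0.03), and *rbx-1*, the RING subunit (0.15 ± 0.04). At 25 °C 2 of 27 were called higher, *cul-6* and *rbx-1* (0.16 ± 0.04), and 0 lower, where 2.09% of all genes were called higher and 2.03% lower. DESeq2 called 3 of the 27, *cul-6* not among them. Between the temperatures 2 of 26 were higher and 20 lower at 25 °C in wild type, and 3 of 27 were higher and 21 lower in mutants. The shares of all genes called higher and lower were 34.9% and 31.3% in wild type and 36.3% and 33.0% in mutants. *dre-1* was called higher in both (0.61 ± 0.05 and 0.66 ± 0.04), *prom-1* (-0.61 ± 0.07) and *dcn-1* (-0.38 ± 0.05) were lower in wild type, and *ned-8* (-0.48 ± 0.03) and *rbx-1* (-0.39 ± 0.03) in mutants. *cul-1*, the cullin named above with *skr-1* and *skr-2*, was at 396 ± 8.87 CPM in wild type and 413 ± 12.5 in mutants at 20 °C, and at 324 ± 5.31 and 350 ± 18.8 CPM at 25 °C.

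Of 15 genes of the intracellular pathogen response, the setting in which *skr-3*, *skr-4* and *skr-5* are known to act, 4 to 6 had enough counts to be tested. At 20 °C edgeR and DESeq2 called 0 of the 4 tested between the genotypes, and 0 had an unadjusted p under 0.05. Of all genes, 7.65% were called higher there and 9.66% lower. At 25 °C edgeR called 1 of 6, *cul-6*, and DESeq2 0, where 2.09% of all genes were called higher and 2.03% lower. Between the temperatures 2 of 4 were called higher at 25 °C and 1 lower in wild type, and 2 of 5 higher and 1 lower in mutants. Of all genes, 34.9% were called higher and 31.3% lower in wild type, and 36.3% and 33.0% in mutants. *pals-22* and *pals-25*, a pair of regulators of this response, were higher at 25 °C in wild type (0.90 ± 0.13 and 0.76 ± 0.12) and in mutants (0.90 ± 0.12 and 0.73 ± 0.12). *drh-1*, an RNA sensor, was lower (-0.54 ± 0.08 and -0.36 ± 0.06).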

How the data were processed

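The authors trimmed the paired reads of non-directional, polyadenylated RNA libraries with Trimmomatic v0.39 and quantified transcripts with Salmon v1.5.1, with sequence and GC bias correction, on WBcel235 per the labels; the annotation release was not given in the sources used here. The deposited tables hold estimated counts per gene, 1 table for each temperature, and 27.4% of the values were over 0.01 from a whole number. The deposited DESeq2 tables also hold the authors' fold changes and adjusted p-values, which were not used; their deposited log2 values per library served to check the columns, and each of 16 count columns correlated best with its own (lowest correlation 0.988).

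Samples were grouped by their labels. The members and gene lists were chosen with earlier results of these data known. Estimated counts were rounded and tested with edgeR v4.0.16 (R v4.3.3; filterByExpr, TMM, glmQLFTest) on the 8 libraries of each comparison, or all 16 for the interaction, with Benjamini-Hochberg adjustment over all genes tested except *fbxa-215* in counts; calls need an adjusted p under 0.05. SEs were derived from the F statistic, and 95% intervals from the t distribution. Log2 CPM used a prior count of 2. CPM per kb used the union of annotated exons; 21714 of 21882 genes were found in the Ensembl annotation, and 168 were not. Every member is described. From the other lists at most 3 genes per comparison, those with the smallest adjusted p, are named, plus the *skr* genes that were called and, after its values were seen, *cul-1*. Alternatives were DESeq2 v1.42.0, scaling by RLE or by the upper quartile, no count filter or at least 10 counts in every library, all 16 libraries in 1 fit, the stage score as a covariate, a replicate block and leaving out each library. The fits were tested on simulated data. Floors cover counting error only. No genome sequence was used here, so none is printed.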

Additional observations from a re-analysis of the deposited data

Results flagged for a closer look

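*skr-7* in replicate 4 of wild type at 20 °C stood apart from its group, at 488 CPM against 462 to 464 CPM in the other 3 libraries. It was 1 of 32 sets of 4 libraries examined in this way (Dixon's criterion), and chance flags about 1 in 20.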

How the results depend on the processing

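Requiring a fold above 2 left 0 members called at 20 °C between the genotypes, and 0 between the temperatures in wild type and in mutants. At 20 °C, 3 members were called with all 16 libraries in 1 fit and 2 with the stage score, and 3 to 5 without 1 library; at 25 °C, 0 to 1 without 1 library. Pairing of the libraries by replicate number was weak at most (same-number correlations of -0.0418 to 0.0742). The replicate block gave 5 calls between the genotypes at 20 °C and 0 at 25 °C, 8 between the temperatures in wild type and 7 in mutants, and 0 in the interaction. Between the genotypes at 20 °C every library correlated best with its own number, a hint of pairing in that comparison only.

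Some uncalled values changed sign. With the stage score at 25 °C, mutant over wild type was -0.0674 for *skr-2*, 0.103 for *skr-3*, -0.119 for *skr-7*, -0.0590 for *skr-8*, -0.0302 for *skr-9* and -0.101 for *skr-17*. That score did not overlap between the genotypes at 25 °C, so the fit can hardly separate stage from genotype. *skr-17* was -0.0207 with upper-quartile scaling and -0.0125 with all 16 libraries. The interaction of *skr-9* was 0.0106 with DESeq2, 0.0104 with RLE, 0.0138 with at least 10 counts in every library and 0.0228 with no filter. Without 1 library, *skr-1* at 20 °C ran from -0.0184 to 0.0324, *skr-3* at 20 °C from -0.145 to 0.157, *skr-17* at 25 °C from -0.0444 to 0.0551, and the *skr-9* interaction from -0.0828 to 0.0328. The sum of *skr-1* and *skr-2* ran from 0.0079 to 0.073 between the temperatures in wild type and from -0.12 to -0.029 in the interaction. The cause was not tested for any of these. Upper-quartile scaling moved the split of calls at 25 °C from 50.7% to 35.8% higher, and RLE that of the interaction from 45.9% to 60.0%. Of the members' 672 alternative fold changes, 628 kept direction and side of the threshold. Counts of 0 to 3 limit *skr-4* and *skr-5*.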
